A study of Mus musculus with 10 samples.

Results

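Antiviral interferon-stimulated genes were followed across whole kidneys of wild-type mice (WT, 4 libraries), of Pkhd1Cre; Pkd2 F/F mice (SM, 3 libraries) and of Pkhd1Cre; Pkd2 F/F; miR-21null mice (DM, 3 libraries), all at postnatal day 21. The 37 genes were taken by name: interferon-induced effectors, sensors and regulators with their transcription factors, without guanylate-binding proteins, immunity-related GTPases, chemokines and MHC genes. All 37 had a row among the 30431 rows of each of the authors' deposited tables, and 36 of them averaged at least 1 CPM (read counts scaled to library size). SM and DM share the Cre driver and the floxed Pkd2 allele and differ by the miR-21 allele as labelled. Pkd2 encodes polycystin-2, whose loss in tubule cells gives cystic kidneys, and the Pkhd1 promoter directs Cre to renal tubule cells, above all the collecting duct, so the RNA of a whole kidney mixes cells with and without the deletion. The sources used here do not give whether WT animals carried Cre or floxed alleles.

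Type I interferon binds the receptor subunits IFNAR1 and IFNAR2, and the kinases JAK1 and TYK2 then activate a transcription factor complex that includes STAT2 and IRF9 and binds interferon-stimulated response elements (ISRE) in target promoters. Interferon-gamma acts through its own receptor, and its targets carry gamma-activated sites (GAS), and the gene of the factor IRF1 is a classic target. The products of the target genes sense foreign RNA, block viral entry, translation or budding, and feed back on the pathway. In the kidney these genes are known from viral infection, lupus nephritis and sterile injury.

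Promoter letters are shown for members whose annotated promoter holds these elements, because the elements recur among part of the genes. The genes were chosen as interferon-stimulated, a class whose promoters carry such elements, so their shares below are a description and not a test. RefSeq promoters (GRCm38.p6) were matched by symbol for 27 of the 37 genes, and the 250 bases before each annotated start were searched on both strands. The ISRE core GAAANNGAAA, or its reverse complement TTTCNNTTTC, was present before 10 of the 27 genes (37%), against 3.46% of 27025 genes with a promoter and 3.2% of 10375 such genes with a row of at least 1 CPM. The GAS core TTCNNNGAA, which reads the same on both strands, was present before 6 of the 27 genes (22.2%), against 8.13% of all genes with a promoter and 7.44% of those with a row of at least 1 CPM. Both motifs can share bases, as they do in Bst2. Capitals mark the matches in stretches that end before the start site, written 5′ to 3′ on the gene's strand.
Isg15 (chr4:156200851-156200920, minus strand): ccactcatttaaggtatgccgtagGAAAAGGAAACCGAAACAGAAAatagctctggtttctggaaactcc
Ifit1 (chr19:34640761-34640837, plus strand): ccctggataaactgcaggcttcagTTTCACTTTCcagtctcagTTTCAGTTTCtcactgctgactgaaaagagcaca
Oas1a (chr5:120907526-120907647, minus strand): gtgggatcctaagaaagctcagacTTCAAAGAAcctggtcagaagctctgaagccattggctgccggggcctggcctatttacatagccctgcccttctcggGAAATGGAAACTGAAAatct
Bst2 (chr8:71537563-71537632, minus strand): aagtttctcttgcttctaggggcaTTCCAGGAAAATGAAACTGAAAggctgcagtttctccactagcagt
Rsad2 (chr12:26456539-26456596, minus strand): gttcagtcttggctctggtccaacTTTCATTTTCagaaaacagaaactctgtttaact
Irf1 (chr11:53769900-53769956, plus strand): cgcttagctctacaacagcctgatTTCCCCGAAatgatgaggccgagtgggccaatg

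Isg15 held 3 overlapping ISRE cores, Ifit1 held 2 apart from each other, and Irf1 held a GAS core and no ISRE core. Isg15, Ifit1, Oas1a, Bst2 and Irf1 rose in DM against WT, as given below, while Rsad2, which also holds an ISRE core, did not pass the test in any comparison. The other genes with an ISRE core were Stat2, Oas3, Ifit3, Trim30a and Slfn8, and the others with a GAS core were Ifit2, Isg20 and Eif2ak2. Of these, Stat2, Ifit3, Trim30a and Ifit2 passed in DM against WT, and Oas3, Slfn8, Isg20 and Eif2ak2 did not. A match is a description of letters and was not tested as a binding site.

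miR-21, the microRNA missing from DM, represses messages that pair with its seed, bases 2 to 8, shown in capitals. The gene lies at chr11:86584067-86584158 on the minus strand (GRCm38).
mmu-miR-21a-5p: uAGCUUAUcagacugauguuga
The seed match ATAAGCT was present in the longest annotated 3′ UTR of 1 of the 37 genes (2.7%), against 8.12% of 12825 genes with a row of at least 1 CPM. That gene was Rsad2, with the match in capitals.
Rsad2 site: gttgtttcATAAGCTattattag

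The tables give no value per library. For each gene the approximate level of each group was therefore computed in CPM from the deposited average and fold changes, and every log2 fold change, p-value and adjusted p-value is that of the authors' deposited tables from edgeR's likelihood ratio test. The standard error (SE) is that implied by the test, 95% intervals were computed from it, and library depth is unknown. A gene was called where the deposited adjusted p was below 0.05 over all rows. CPM values do not account for gene length and are compared only within a gene. The targeted genes do not check the labels. Pkd2 had a log2 fold change of -0.41 in SM (adjusted p = 0.179, SE 0.20) and -0.49 in DM (adjusted p = 0.0838, SE 0.20) against WT by the authors' deposited tables, and the row of the miR-21 gene stood at the lowest value of the tables in every comparison. The row of Pkd2 counts the whole gene in cells with and without the deletion.

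Wild-type kidneys already held the transcripts of most of these genes. A minority were called higher with loss of Pkd2, and most were called higher than wild type where miR-21 was missing as well. The log2 fold change was above 0 for 33 of 37 genes in SM against WT (89.2%) and for 34 of 37 in DM against WT (91.9%). Of rows with at least 1 CPM, 48.9% and 50.2% were above 0. For SM against WT, the authors' deposited table called 7 of 37 genes higher and 0 lower, and the median log2 fold change was 0.62. Over all rows 7.87% were higher and 6.09% lower, and of rows with at least 1 CPM 12.2% were higher, against 7 in 37 of the members. At an unadjusted p below 0.05 there were 12 higher members and 2 lower ones, Oas3 and Rsad2, which is 37.8% of the members, near the 33.0% of rows with at least 1 CPM (23.4% of all rows). The higher members alone made 32.4%, against 17.3% of rows with at least 1 CPM. By the authors' deposited table for DM against WT, 24 of 37 genes rose and 0 fell, with a median of 1.42. Over all rows 7.55% were higher and 5.92% lower, and of rows with at least 1 CPM 11.3% were higher. At an unadjusted p below 0.05 there were 30 higher members (81.1%) and no lower member, where 16.4% of rows with at least 1 CPM and 11.7% of all rows were higher at that threshold. By the authors' deposited table for DM against SM, 1 of 37 genes rose, Xaf1, and 0 fell, with a median of 0.64, where 0.0559% of all rows were higher, 0.023% lower, and 0.0727% of rows with at least 1 CPM were higher. The median log2 fold change of rows with at least 1 CPM was -0.010 in SM against WT, 0.002 in DM against WT and 0.001 in DM against SM. SM and DM are each compared with the same WT libraries, so their values are set side by side below and only the DM against SM test compares them. In bulk tissue, more cells of a type and more RNA per cell cannot be told apart.

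**Figure D1:**
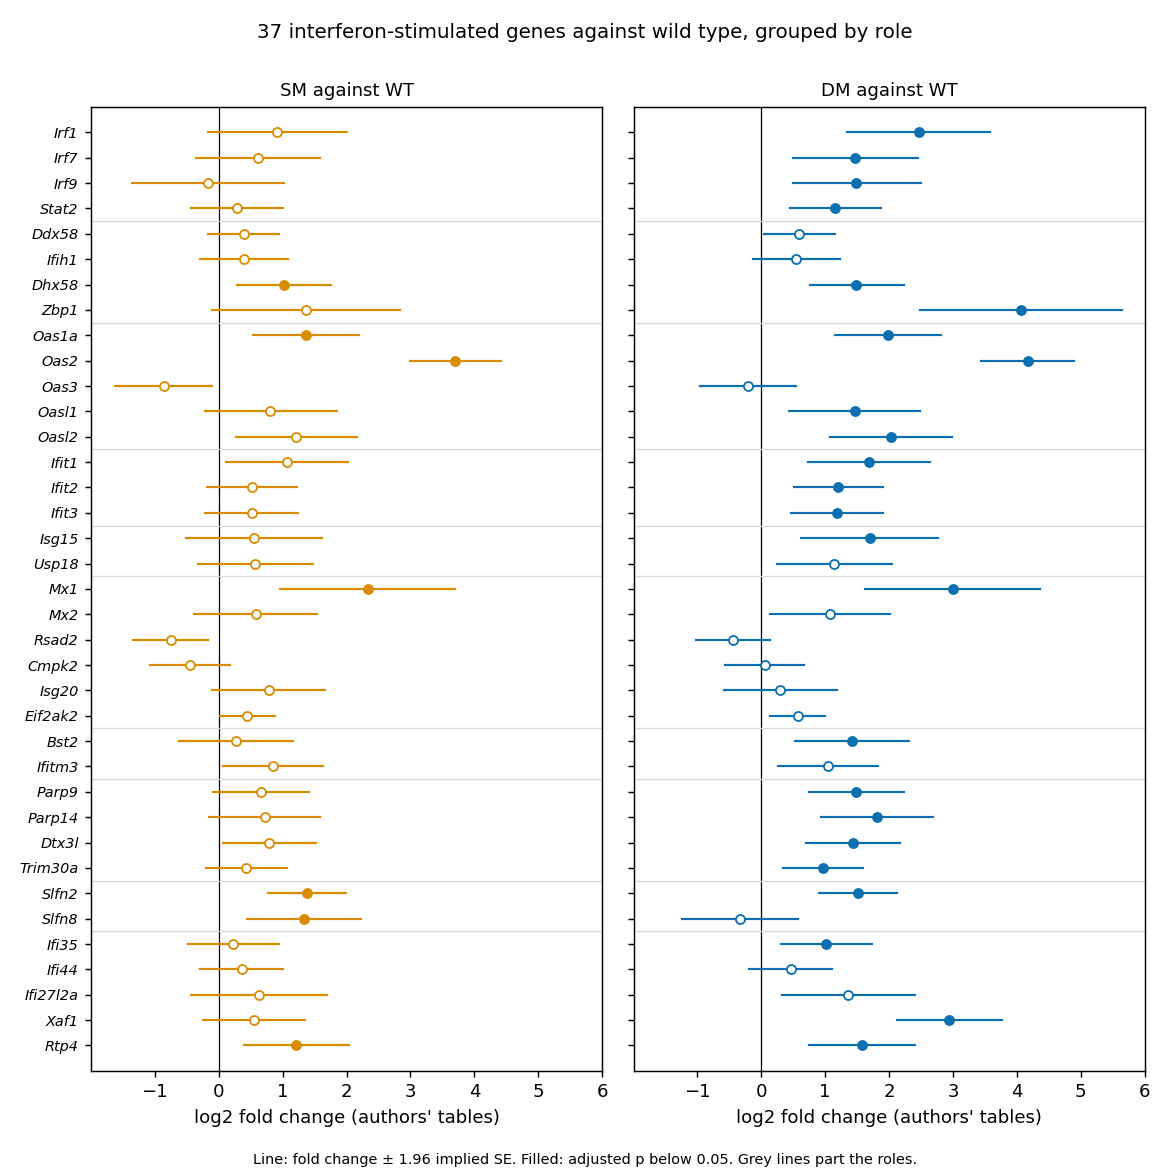
Log2 fold change of each of the 37 genes in SM against WT (left) and DM against WT (right) from the authors' deposited tables, with lines for 95% intervals, filled points for adjusted p below 0.05 and grey lines between roles. In SM 7 points are filled, with Oas2 farthest right at 3.70, and in DM 24 are filled.

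The 4 transcription factors all rose in DM against WT, and none was called in SM against WT. Irf1, an interferon-gamma and injury-responsive activator, had computed levels of 23.7 CPM in WT, 44.9 in SM and 131 in DM. SM lay between the other groups, nearer WT. Its log2 fold change by the authors' deposited tables was 0.92 (adjusted p = 0.332, SE 0.56) in SM against WT and 2.47 (adjusted p = 0.000374, SE 0.57) in DM against WT. Stat2, the STAT of the type I complex, stood at 25.1, 30.5 and 56.3 CPM in WT, SM and DM, with 1.16 (adjusted p = 0.0152, SE 0.37) in DM against WT by the authors' deposited table. Irf7, which amplifies interferon production, stood at 16.5, 25.3 and 45.8 CPM, with 1.47 (adjusted p = 0.0267, SE 0.50) in DM against WT by the authors' deposited table. Irf9, the DNA-binding partner of STAT2, had the lowest average of the 37, at -1.59 log2 CPM, with 0.219, 0.195 and 0.617 CPM. It had 1.49 (adjusted p = 0.0311, SE 0.51) in DM against WT by the authors' deposited table. The annotated Irf9 gene overlaps Rnf31 on the same strand, so how its reads were assigned is uncertain.

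Among the 4 sensors of foreign nucleic acid, Dhx58 and Zbp1 rose in DM against WT, and the RIG-I and MDA5 genes did not pass. Zbp1, which binds Z-form nucleic acid and can start necroptosis, stood at 1.15 CPM in WT, 2.97 in SM and 19.3 in DM. Its log2 fold change of 4.07 in DM against WT (adjusted p = 1.7e-05 by the authors' deposited table, SE 0.80) was second to that of Oas2 among the 37, and in SM against WT it was 1.37 (adjusted p = 0.265, SE 0.75). Dhx58, which encodes the RIG-I-like helicase LGP2, rose against WT in both, at 1.02 in SM (adjusted p = 0.048, SE 0.38) and 1.49 in DM (adjusted p = 0.00135, SE 0.38) by the authors' deposited tables. Ddx58 (RIG-I) went from 40.8 CPM in WT to 53.4 in SM and 61.6 in DM, and Ifih1 (MDA5) from 17.1 to 22.5 and 25. Neither passed against WT by the authors' deposited table, where in DM their adjusted p values were 0.17 and 0.369.

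The OAS family, which includes enzymes that make the oligoadenylates that activate RNase L, held both the largest increase and a member with a negative fold change. Oas2 stood at 2.69 CPM in WT, 35.0 in SM and 48.4 in DM, so SM and DM lay close together and far above WT. Its log2 fold change was 3.70 in SM (adjusted p = 4.39e-21, SE 0.37) and 4.17 in DM (adjusted p = 6.93e-26, SE 0.37) against WT by the authors' deposited tables, and in DM against SM it was 0.47 with an interval from -0.25 to 1.18. Oas1a rose in both as well, from 1.47 CPM to 3.78 and 5.84, with 1.36 (adjusted p = 0.0142, SE 0.43) and 1.99 (adjusted p = 9.46e-05, SE 0.42) by the authors' deposited tables. Oasl2, from 10.9 CPM to 25.2 and 44.3, passed in DM at 2.03 (adjusted p = 0.000702, SE 0.49) and had adjusted p = 0.075 in SM by the authors' deposited tables. Oasl1 passed in DM at 1.46 (adjusted p = 0.0423, SE 0.53) by the authors' deposited tables. Oas3 did not share these values, with 7.42 CPM in WT, 4.08 in SM and 6.46 in DM, and log2 fold changes of -0.86 (adjusted p = 0.14, SE 0.39) and -0.20 (adjusted p = 0.918, SE 0.38) by the authors' deposited tables. Oas2 (chr5:120730333-120749853) and Oas3 (chr5:120753098-120777661) lie 3.2 kb apart on the minus strand, with Oas1a (chr5:120896256-120907521) 118.6 kb farther on. The difference between the neighbouring genes was not tested. Oas1a belongs to a group of near-identical copies, so reads may be split between them. An annotated transcript of unclear status overlaps Oas2 on the opposite strand.

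The 3 IFIT genes, whose proteins bind viral RNA and lie side by side on chromosome 19, all rose in DM. Ifit1 went from 6.08 CPM in WT to 12.7 in SM and 19.6 in DM, Ifit2 from 26.6 to 38.1 and 61.3, and Ifit3 from 25.7 to 36.8 and 58.3. For each, SM lay between WT and DM. All 3 rose in DM against WT, at 1.69 (adjusted p = 0.00679, SE 0.49), 1.2 (adjusted p = 0.00864, SE 0.36) and 1.18 (adjusted p = 0.014, SE 0.37) by the authors' deposited table, and 0 of 3 passed in SM against WT. Ifit3 has a near copy, Ifit3b, which could share its reads. Its row carries the older symbol I830012O16Rik (a synonym in RefSeq) and stood at 7.72, 13.1 and 16.9 CPM, with 1.14 in DM against WT (adjusted p = 0.0122 by the authors' deposited table, SE 0.35).

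Isg15, the ubiquitin-like modifier that is conjugated to proteins after interferon, stood at 8.31 CPM in WT, 12.2 in SM and 27 in DM. It rose in DM at 1.70 (adjusted p = 0.0176 by the authors' deposited table, SE 0.54), and SM stood at 0.55 (adjusted p = 0.646, SE 0.54). Usp18, the protease that removes ISG15 and restrains the receptor, was at 3.64, 5.41 and 8.04 CPM and did not pass in DM (1.14, SE 0.46, adjusted p = 0.0801 by the authors' deposited table).

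Of 6 genes grouped as Mx, viperin and other effectors, only Mx1 passed, in SM and in DM against WT. Mx1, a dynamin-like GTPase, stood at 0.31 CPM in WT, 1.56 in SM and 2.47 in DM. Its log2 fold change was 2.33 (adjusted p = 0.00924, SE 0.70) in SM and 3.00 (adjusted p = 0.00043, SE 0.70) in DM by the authors' deposited tables. Mx2 lies 72.4 kb away and had adjusted p = 0.565 in SM and 0.13 in DM by the authors' deposited tables. Rsad2 (viperin), a radical SAM enzyme, had its highest level in WT, at 79.5 CPM against 47.2 in SM and 58.4 in DM. Its log2 fold change was -0.75 (adjusted p = 0.0724, SE 0.30) in SM and -0.44 (adjusted p = 0.404, SE 0.29) in DM by the authors' deposited tables. Cmpk2, a nucleotide kinase gene 12.8 kb from Rsad2, stood at 22.4, 16.4 and 23.4 CPM, with -0.45 (adjusted p = 0.449, SE 0.32) and 0.06 (adjusted p = 1, SE 0.31) by the authors' deposited tables. Both neighbours thus stood lowest in SM. Eif2ak2, which encodes the RNA-activated kinase PKR, had 0.57 (adjusted p = 0.0611, SE 0.22) in DM against WT by the authors' deposited table, with an interval from 0.14 to 1. The exonuclease gene Isg20 had 0.30 (adjusted p = 0.841, SE 0.45) there by the authors' deposited tables.

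At the membrane, Bst2 (tetherin, which holds budding virions) went from 31.0 CPM in WT to 37.4 in SM and 83.3 in DM. It rose in DM at 1.42 (adjusted p = 0.0172 by the authors' deposited table, SE 0.45). Ifitm3, which blocks fusion of incoming virus, went from 68.0 to 123 and 140 CPM and passed in neither, with adjusted p = 0.157 in SM and 0.0599 in DM by the authors' deposited tables.

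The ADP-ribosyltransferase genes Parp9 and Parp14, the E3 ligase gene Dtx3l and the TRIM gene Trim30a all rose in DM against WT, and 0 of these 4 passed in SM. Parp14, a modulator of STAT signalling, stood at 27.7, 45.6 and 97.3 CPM in WT, SM and DM, with 1.81 in DM (adjusted p = 0.000982 by the authors' deposited table, SE 0.45). Parp9 and Dtx3l, whose proteins form a complex, overlap head to head on chromosome 16. They had 1.49 (adjusted p = 0.00181, SE 0.38) and 1.43 (adjusted p = 0.0022, SE 0.37) in DM by the authors' deposited table. Trim30a had 0.97 (adjusted p = 0.0231, SE 0.32) by the authors' deposited tables.

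The Schlafen genes Slfn2, a regulator of T cell quiescence, and Slfn8 both rose in SM, and only Slfn2 passed in DM against WT. Slfn2 went from 9 CPM in WT to 23.4 in SM and 25.6 in DM, and rose in both, at 1.38 (adjusted p = 0.00022, SE 0.31) and 1.51 (adjusted p = 4.25e-05, SE 0.31) by the authors' deposited tables. Slfn8 stood at 1.43 CPM in WT, 3.59 in SM and 1.14 in DM, with SM the highest. It rose in SM at 1.33 (adjusted p = 0.0288, SE 0.45) and had -0.33 (adjusted p = 0.82, SE 0.46) in DM by the authors' deposited tables.

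Of the remaining 5 members, Xaf1, Rtp4 and Ifi35 rose in DM against WT. Xaf1, whose product binds the caspase inhibitor XIAP, stood at 8.88 CPM in WT, 13.0 in SM and 68.4 in DM, with SM close to WT and DM apart. Its log2 fold change was 0.55 (adjusted p = 0.482, SE 0.41) in SM and 2.94 (adjusted p = 3.77e-10, SE 0.42) in DM by the authors' deposited tables. Rtp4, a receptor transport chaperone gene, rose in both, at 1.21 (adjusted p = 0.0327, SE 0.42) and 1.57 (adjusted p = 0.003, SE 0.42) by the authors' deposited tables. Ifi35 passed in DM at 1.02 (adjusted p = 0.0384, SE 0.36) by the authors' deposited tables. Ifi27l2a and Ifi44 had adjusted p = 0.0701 and 0.466 in DM by the authors' deposited table.

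**Figure D2:**
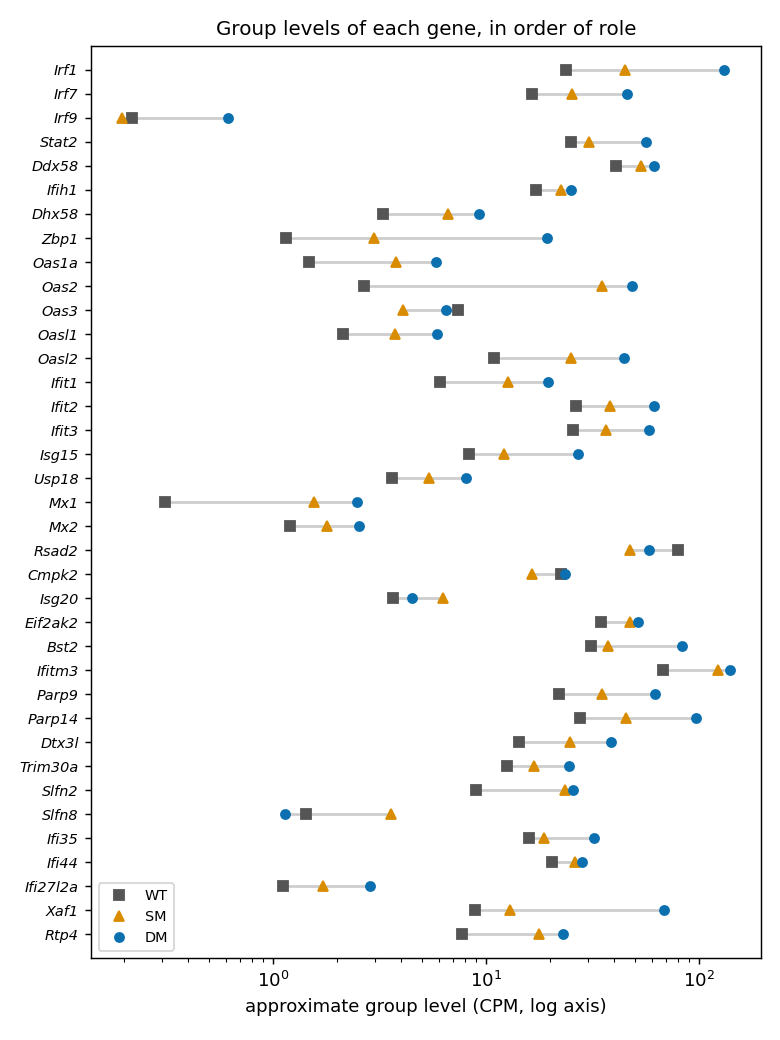
Approximate level of each gene in WT (squares), SM (triangles) and DM (circles) in CPM on a log axis, computed from the deposited averages and fold changes, with genes in order of role. Levels are to be read along a line and not between genes, and Rsad2 is a gene whose WT level, 79.5 CPM, is its highest.

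The direct comparison of DM with SM asks how the cystic kidney differs when miR-21 is missing as well. Xaf1 was 2.39 higher on the log2 scale in DM (interval 1.5 to 3.29, adjusted p = 0.000855 by the authors' deposited table, SE 0.46) and was the only one of the 37 genes to pass. Without adjustment, 10 of 37 genes had p below 0.05 (27%), 9 of them higher in DM, against 3.75% of all rows and 3.01% of rows with at least 1 CPM. Those higher were Xaf1, Zbp1, Irf9, Irf1, Bst2, Parp14, Stat2, Parp9 and Ifi35, and the lower gene was Slfn8. In all, 35 of 37 genes had a positive log2 fold change (94.6%), against 50.4% of rows with at least 1 CPM. The genes were measured in the same 6 libraries and are not independent of each other.

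Other members with large differences, Zbp1, Irf9, Irf1 and Slfn8, did not pass. Zbp1 had 2.70 (interval 1.04 to 4.36, p = 0.00145, adjusted p = 0.424 by the authors' deposited table, SE 0.85), and Irf1 had 1.54 (interval 0.34 to 2.74, p = 0.0117, adjusted p = 0.994, SE 0.61). Irf9 had 1.66 (interval 0.55 to 2.78, p = 0.00353, adjusted p = 0.647 by the authors' deposited table, SE 0.57). Slfn8 had -1.66 (interval -2.63 to -0.69, SE 0.50), with p = 0.00083 and adjusted p = 0.304 by edgeR's likelihood ratio test in the authors' deposited table. For Slfn2 the difference was 0.13 with an interval from -0.52 to 0.78, for Eif2ak2 0.13 with -0.34 to 0.59, and for Ddx58 0.21 with -0.39 to 0.80. These intervals hold 0 and do not reach a 2-fold change (1 on the log2 scale). For 5 of the 7 genes called in SM, Dhx58, Oas1a, Oas2, Mx1 and Rtp4, a further 2-fold increase in DM lies within the interval, as for Oas1a at 0.63 (interval -0.25 to 1.51) and Mx1 at 0.67 (interval -0.72 to 2.05). For Slfn2 and Slfn8 it does not.

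**Figure D3:**
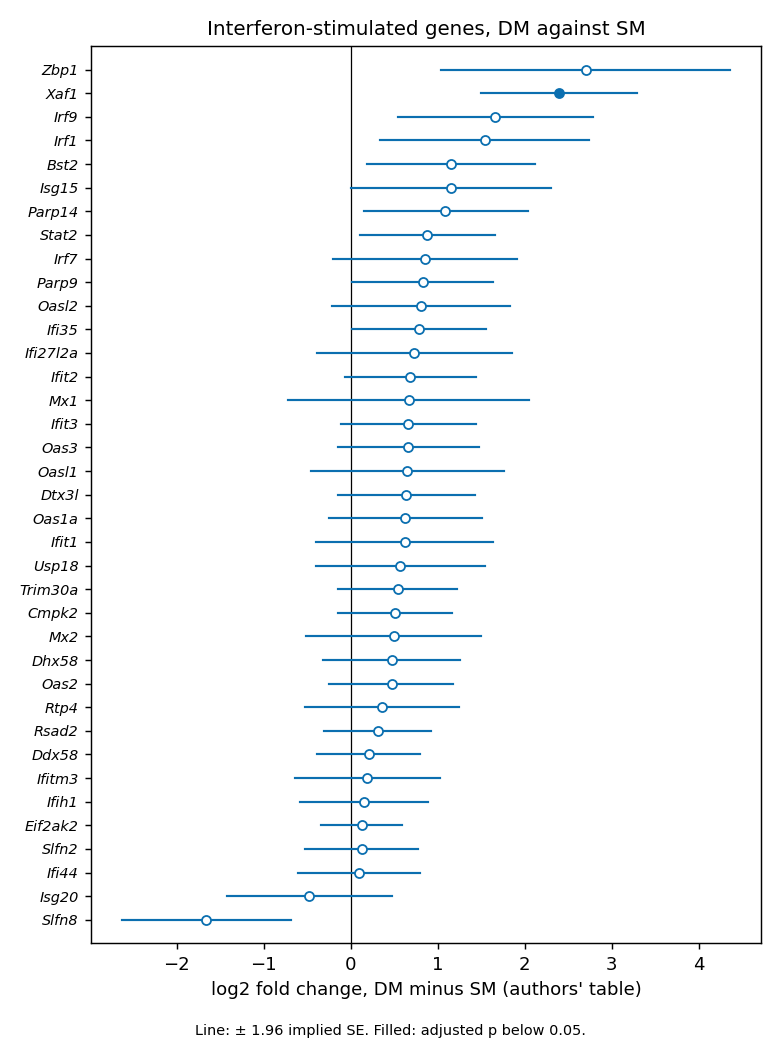
Log2 fold change of DM minus SM for each gene, in order of size, from the authors' deposited table, with lines for 95% intervals and a filled point for adjusted p below 0.05. Xaf1 at 2.39 is the filled point, Zbp1 at 2.70 lies above it with a wider line, and Slfn8 at -1.66 lies lowest.

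The errors of these genes were large for their level. In DM against SM, 36 of 37 had an implied SE above the median of the named rows within 0.5 log2 CPM of their own level, and the median member lay at the 96.2 percentile of such rows. The members' median implied SE was 0.45, where that of rows of like level was typically 0.24. In SM against WT the count was 37 of 37, and in DM against WT it was 36 of 37. The comparisons were read as contrasts of 1 fit, so these counts are not independent of each other. To pass in DM against SM, where the largest p among the 24 called rows was 2.98e-05, a gene with the members' median error needed a log2 difference of 1.87, against 1.14 in DM against WT. A difference of the size of the median member was therefore not detectable in DM against SM. Which animals carried the spread cannot be read from tables without values per library.

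**Figure D4:**
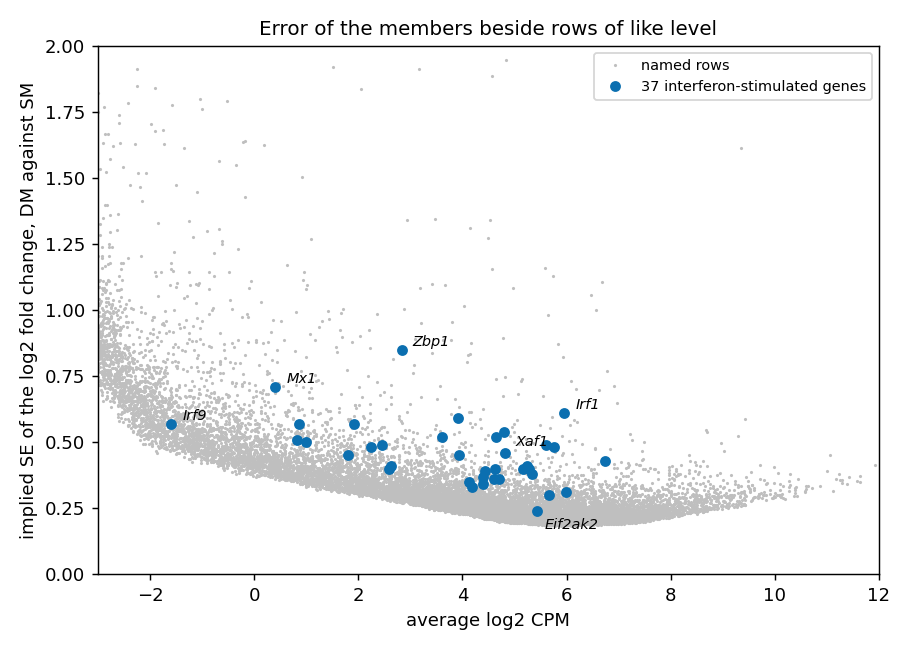
Implied SE of the log2 fold change in DM against SM (vertical, cut at 2) by average log2 CPM (horizontal), for the named rows (grey) and the 37 genes (blue). The blue points lie in the upper part of the grey cloud at their level, and Zbp1 has the highest of their errors at 0.85.

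By position, 6 of the 37 genes lie on chromosome 11, which also carries the miR-21 gene. Slfn2 (chr11:83065112-83070678) lies 3.51 Mb and Slfn8 (chr11:83002158-83020810) 3.56 Mb from it, Dhx58 14.11 Mb, Xaf1 (chr11:72301629-72313733) 14.27 Mb, Ifi35 14.86 Mb and Irf1 32.81 Mb. The called gene of DM against SM and the member that stood lowest there are thus both on this chromosome, and Slfn2 had a difference of 0.13. Whether position bears on these values was not tested.

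Upstream of these genes, transcripts of the interferons were at or near the lowest level. Of 21 interferon genes listed, 19 had a row, 14 of them at the lowest value in the tables (-4.28 log2 CPM), and 0 passed in any comparison of the authors' deposited tables. At an unadjusted p below 0.05, 1 was called in SM against WT, 2 in DM against WT and 0 in DM against SM. Ifnb1 averaged -4.21 log2 CPM, and Ifng -3.23, with a log2 fold change of 1.72 (adjusted p = 0.437, SE 1.19) in DM against WT by the authors' deposited table. Ifnz had 3.58 (adjusted p = 0.126, SE 1.58) and Ifnl3 -2.99 (adjusted p = 0.206, SE 1.51) there, at levels of at most 0.125 CPM. At this level a change in the interferon transcripts was not detectable.

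Of 6 receptor genes 4 rose in SM against WT and 4 in DM against WT by the authors' deposited tables, and 0 passed in DM against SM, with 0 at an unadjusted p below 0.05. Ifnlr1, the receptor of interferon-lambda, had 1.39 (adjusted p = 8.52e-06, SE 0.27) and 1.19 (adjusted p = 0.000227, SE 0.27), and Ifngr1, of interferon-gamma, 0.81 (adjusted p = 0.000298, SE 0.19) and 0.73 (adjusted p = 0.00158, SE 0.19) by the authors' deposited tables. The receptor kinase gene Tyk2 had 0.36 (adjusted p = 0.322, SE 0.22) in DM against WT by the authors' deposited tables.

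Of 19 measured genes of nucleic acid sensing and its signalling, 6 rose in SM and 9 in DM against WT, and 0 passed in DM against SM (1 at an unadjusted p below 0.05) by the authors' deposited tables. Tmem173, which encodes the adaptor STING, had 2.07 (adjusted p = 1.72e-13, SE 0.26) and 2.05 (adjusted p = 3.44e-13, SE 0.26) against WT, and Tlr8, an endosomal RNA receptor gene, 3.38 (adjusted p = 1.31e-13, SE 0.42) and 3.10 (adjusted p = 1.27e-11, SE 0.41) by the authors' deposited tables. Among 7 negative regulators, 1 rose in SM and 2 in DM against WT by the authors' deposited tables. Socs3 had 2.98 (adjusted p = 5.88e-19, SE 0.31) and 3.48 (adjusted p = 4.18e-25, SE 0.32), and Socs1, which inhibits the receptor kinases, 0.97 (adjusted p = 0.363, SE 0.61) and 2.34 (adjusted p = 0.00212, SE 0.61) by the authors' deposited tables.

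In a wider list of 49 measured interferon-stimulated genes outside the 37, 7 rose and 1 fell in SM against WT, 22 rose and 1 fell in DM against WT, and 0 passed in DM against SM, with 11 at an unadjusted p below 0.05 by the authors' deposited tables. Their medians were 0.45, 1.0 and 0.45 where those of the 37 genes were 0.62, 1.42 and 0.64. Oas1g, a close copy of Oas1a, rose in SM at 2.69 (adjusted p = 7.89e-06, SE 0.52) and in DM at 3.26 (adjusted p = 2.09e-08, SE 0.51) against WT by the authors' deposited tables. Gm12250, an immunity-related GTPase gene in this list, had 5.63 (adjusted p = 1.85e-06, SE 1.02) in DM against WT by the authors' deposited tables.

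The guanylate-binding proteins and immunity-related GTPases, families that respond above all to interferon-gamma, were set beside the 37 genes. Taken by name, 10 of 11 guanylate-binding protein genes and 8 of 11 immunity-related GTPase genes rose in DM against WT, and 2 and 3 of them in DM against SM by the authors' deposited tables. The smallest p in DM against WT among the guanylate-binding protein genes were those of Gbp8, at 5.05 (adjusted p = 7.06e-07, SE 0.88), and Gbp2, at 5.02 (adjusted p = 3.6e-06, SE 0.93), by the authors' deposited table. Those past the threshold in DM against SM were Gbp10, Gbp6, Igtp, Tgtp1 and Tgtp2. Gbp6 stood at 2.87 CPM in WT, 2.52 in SM and 73.0 in DM, and Igtp at 9.19, 10.9 and 272. Tgtp1 and Tgtp2 are near copies of each other, so their reads could be split. The families' median log2 fold changes in DM against SM were 3.07 and 3.05, against 0.64 for the antiviral genes, and in SM against WT 0.50 and 0.22, against 0.62. These lists were written with the values known, and the difference between these families and the antiviral genes was not tested.

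Markers of T cells and of NK and cytotoxic cells were set beside these values. Of 14 measured T cell markers 1 rose in SM and 6 in DM against WT by the authors' deposited tables. None was at the lowest level, but 11 averaged below 1 CPM. The summed level of the 14 was 11.3 CPM in WT, 14.0 in SM and 21.9 in DM. Cd8b1 had 4.67 (adjusted p = 5.62e-05, SE 0.97) and Cd3g 2.85 (adjusted p = 0.000281, SE 0.65) in DM against WT by the authors' deposited table. Of the 14 markers 13 had a log2 fold change above 0 there and 1, Cd8a, below 0. Cd8a had -0.24 (adjusted p = 0.975, SE 0.57) and Cd4 0.40 (adjusted p = 0.618, SE 0.37) by the same table. Cd8a stood at 3.43 CPM in WT, 1.47 in SM and 2.91 in DM, and Cd8b1 at 0.0505, 0.266 and 1.29. Rows at the lowest value of the tables compute to 0.0514 CPM, so the WT level of Cd8b1 was near the floor and the size of its fold change is uncertain. Of 12 NK and cytotoxic markers 2 rose in SM and 6 in DM against WT. None was at the lowest level, but 11 averaged below 1 CPM. The sums were 2.30 CPM in WT, 6.48 in SM and 21.9 in DM. The remaining marker, Ccl5, averaged 2.23 log2 CPM. It had the highest level of the 12 in each group, so it weighs most in these sums. The granzyme gene Gzmb had 4.65 (adjusted p = 0.000122, SE 1.01) and Ccl5 4.00 (adjusted p = 7.67e-05, SE 0.85) in DM against WT by the authors' deposited table. Gzmb stood at 0.116 CPM in WT, 0.157 in SM and 2.9 in DM, so the size of its fold change is uncertain. In DM against SM 0 markers of either list passed, with 5 T cell and 3 NK markers at an unadjusted p below 0.05, and their part in the values of the 37 genes was not tested.

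Of 14 macrophage markers 13 rose in SM and 12 in DM against WT by the authors' deposited tables, and the sums were 172, 580 and 575 CPM in WT, SM and DM. C1qa had 2.38 (adjusted p = 3.08e-18, SE 0.25) and 2.70 (adjusted p = 5.14e-23, SE 0.25), and Mrc1 2.55 (adjusted p = 8.33e-27, SE 0.22) and 2.10 (adjusted p = 2.17e-18, SE 0.22). Plasmacytoid dendritic cells, known as strong producers of type I interferon, gave 0 higher and 1 lower of 6 markers in each mutant. Of the 6 markers 4 averaged below 1 CPM. The log2 fold change was above 0 for 5 of them in SM and for 4 in DM. The marker called lower was Cox6a2, at -3.42 (adjusted p = 3.7e-07, SE 0.59) and -2.55 (adjusted p = 5.76e-05, SE 0.53), and Spib had 0.99 (adjusted p = 0.123, SE 0.44) in DM against WT by the authors' deposited table. Of 5 B cell markers 0 passed in any comparison, with 1 at an unadjusted p below 0.05 in DM against WT, Cd79b at 0.75 (adjusted p = 0.182, SE 0.36), and Cd79a had 0.66 (adjusted p = 0.458, SE 0.47) by the authors' deposited tables. Of 6 neutrophil markers 3 rose in SM, and 1 rose and 1 fell in DM. Csf3r rose in DM at 1.19 (adjusted p = 0.00124, SE 0.30) and Mmp9 fell by 1.78 on the log2 scale (adjusted p = 0.0155, SE 0.56) by the authors' deposited tables. The part of these cells in the values of the 37 genes was not tested.

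**Figure D5:**
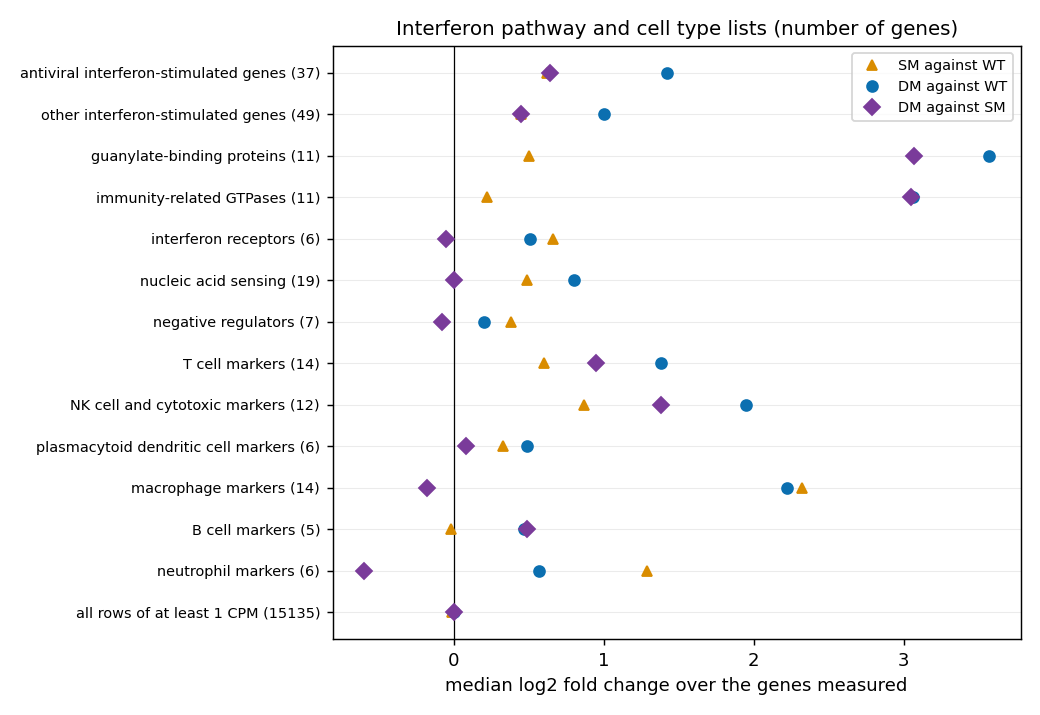
Median log2 fold change of each gene list in SM against WT (triangles), DM against WT (circles) and DM against SM (diamonds), from the authors' deposited tables, with the number of genes measured. The 37 antiviral genes stand at 0.62, 1.42 and 0.64, macrophage markers lie near 2 against WT and near 0 between the mutants, and the guanylate-binding proteins lie farthest right.

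The tissue carried the markers of kidney, since 15 of 15 nephron and vessel markers, among them Umod, Nphs1 and Aqp2, averaged between 5.13 and 11.63 log2 CPM. Of these 9 fell in SM and 8 in DM against WT, among them the transporter genes Slc4a1, by 2.10 in SM and 1.93 in DM, and Slc22a6, by 1.68 and 1.5 by the authors' deposited tables. Hepatocyte markers also differed, with 9 of 16 lower and 2 higher in SM, and 9 lower and 3 higher in DM. Fgg and Fga, fibrinogen genes that injured tubules also express, rose in DM by 2.69 (adjusted p = 4.76e-10, SE 0.39) and 1.93 (adjusted p = 2.72e-06, SE 0.35), whereas Alb had -8.66 in SM (adjusted p = 3.92e-07, SE 1.49) and -7.01 in DM (adjusted p = 1.68e-05, SE 1.38) by the authors' deposited tables. The summed level of that list was 595 CPM in WT, 466 in SM and 451 in DM, and this sum hides unlike genes. Alb stood at 132 CPM in WT, 0.328 in SM and 1.03 in DM, and Ahsg at 27.7, 0.0818 and 0.209. Cyp2e1 stood at 175, 115 and 67.5 CPM, and Fga at 27.8, 103 and 106. The part of the hepatocyte markers in the WT levels of the 37 genes, such as those of Rsad2, was not tested. Of the 37 genes 15 overlap another annotated gene, 3 of them on the same strand, and the sources used here do not give whether counting used strand.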

How the data were processed

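RNA of 10 whole mouse kidneys was sequenced after a stranded total RNA preparation, per the labels' protocols. Build mm10, edgeR 3.2.4, TopHat2 2.0.12, Subread 1.4.6, featureCounts, Cufflinks and bcl2fastq 1.8.4 were used by the authors, per the submitters' processing notes, which give no roles here. The authors deposited 3 tables of comparisons, each with the log2 fold change, average log2 CPM, a likelihood ratio score, a p-value and an adjusted p-value for 30431 rows (23276 with a gene name). The deposited averages were identical in the 3 tables, the fold changes subtract exactly, and the adjusted p-values are Benjamini-Hochberg values over all rows, so the tables were read as contrasts of 1 fit that the authors made with edgeR. Values per library were not analysed here, so the count test could not be run, and the planned replacement, the deposited adjusted p below 0.05, was used. Depth per library is unknown.

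Dividing the size of the log2 fold change by the root of the likelihood ratio score gave the implied SE. Group levels were solved from the average, taken as the mean over 4 WT, 3 SM and 3 DM libraries, and are approximate. Positions came from GENCODE mouse release M21 (GRCm38, the assembly of mm10), and 37 of 37 symbols matched. Scripts ran in python 3.11.15 with scipy 1.17.1 and were tested on simulated data. Members, roles and lists were chosen with earlier results of these data known. Named genes were all members, and those past the threshold were given with log2 fold change, SE and adjusted p where they passed. From each other list came the 2 genes with the smallest p in DM against WT, with any past the threshold in DM against SM. Further genes of those lists, such as Cd8a and Alb, were added with their values known. A gene that this rule names is not reported here. Alternatives were other thresholds, a 2-fold minimum, a filter at 1 CPM, named rows alone and centring on the median.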

Additional observations from a re-analysis of the deposited data

Results flagged for a closer look

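Xaf1 is listed because its change against WT differed between the mutants by the test of that difference: it was 2.39 higher on the log2 scale in DM than in SM (adjusted p = 0.000855 by the authors' deposited table of edgeR's likelihood ratio test, implied SE 0.46). Its computed levels were 8.88 CPM in WT, 13.0 in SM and 68.4 in DM.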

How the results depend on the processing

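No paired analysis was possible because each library carries its own animal number and the tables hold no value per library, and leaving out each replicate in turn could not be run for the same reason. With adjusted p below 0.01 the higher members were 3 in SM against WT and 15 in DM against WT. With adjusted p below 0.1, and with rows under 1 CPM left out, 1 member was lower in SM against WT, Rsad2 by its p in the deposited table. Leaving out rows under 1 CPM also removed Irf9 and gave 26 higher members in DM against WT, 23 of them among the 24. The 2-fold minimum, named rows alone and centring left every count of members within 1.5 times of that reported, and centring changed no direction and no call among 111 values of single members. Depth is unknown, and the size of the implied errors limits DM against SM.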

Other observations

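Genes of antigen processing within the wider interferon list included large increases in DM. The peptide transporter gene Tap1 stood at 8.72 CPM in WT, 14.7 in SM and 92.2 in DM, with a log2 fold change of 3.40 (adjusted p = 2.41e-05, implied SE 0.68) in DM against WT and 2.64 (adjusted p = 0.197, implied SE 0.74) in DM against SM by the authors' deposited tables of edgeR's test. The immunoproteasome gene Psmb9 stood at 4.82, 6.26 and 45.1 CPM, with 3.23 (adjusted p = 0.000469, implied SE 0.76) in DM against WT by the same tables of the authors. Ly6e, a surface protein gene, rose in both mutants, at 1.01 (adjusted p = 0.00125, implied SE 0.25) and 1.14 (adjusted p = 0.00019, implied SE 0.25) against WT by the authors' deposited tables. Epsti1 also rose in both, at 2.03 (adjusted p = 6.09e-05, implied SE 0.43) and 1.90 (adjusted p = 0.000228, implied SE 0.43) by the authors' deposited tables. These genes were picked for mention after their values were seen.

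Other Schlafen genes of the cluster near the miR-21 gene differed among themselves. Slfn1, 3.46 Mb from it, rose in both mutants, at 2.61 in SM (adjusted p = 0.0016, implied SE 0.67) and 3.07 in DM (adjusted p = 0.000114, implied SE 0.66) by the authors' deposited tables of edgeR's test. Slfn1 averaged -0.03 log2 CPM and stood at 0.207 CPM in WT. Slfn9 rose in SM at 1.85 (adjusted p = 0.000752, implied SE 0.45) and had 1.18 in DM (adjusted p = 0.0582, implied SE 0.45) by the authors' deposited tables. Slfn5 had -0.31 in SM (adjusted p = 0.462, implied SE 0.22) and fell by 0.61 in DM (adjusted p = 0.0433, implied SE 0.22) by the authors' deposited tables. Slfn3 had -0.24 in SM and -0.23 in DM, Slfn4 had 0.60 and 1.33, and neither was called against WT. In DM against SM the deposited values were 0.46 for Slfn1, -0.67 for Slfn9 and -0.31 for Slfn5, and none passed.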
